A study of Mus musculus with 10 samples.

Results

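The comparison described is that of tumours from mice given docosahexaenoic acid (DHA) oil with tumours from mice on ordinary chow, and it used 6 of the 10 libraries in the series. The members were chosen by sample title, as the 3 libraries titled OIL and the 3 titled CTRL. All tumours were grafts of DAOY, an established human line of medulloblastoma, a malignant tumour of the cerebellum. The line had been implanted in the flank of nude mice, which lack mature T cells and so tolerate human tissue. Every library in both groups came from a female animal and a frozen tumour at 30 days. The labels set the groups apart only by treatment, chow or DHA-oil, which is called the diet below. Control animals ate chow and the treated ones received DHA-oil. The labels do not state the dose, the vehicle or the age of the animals. The 4 libraries labelled Fish-oil entered the fit only to help estimate the spread between libraries. The study is a model of 1 cell line at an ectopic site. The labels do not say whether each library is a separate animal, so a p-value speaks only of the spread between libraries, which may be technical.

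DHA is a long-chain omega-3 polyunsaturated fatty acid. Cells take it up into membrane phospholipids, where it competes with arachidonic acid, the precursor from which cyclooxygenases make prostaglandins. Fatty acids of this kind also bind nuclear receptors of the PPAR family and restrain SREBP, the factor that drives lipid synthesis genes. The comparison asks which transcripts of the graft differ when such an oil is given.

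RNA was counted as reads per human gene, and levels are given as CPM, the count scaled to a common library total. The 6 libraries held between 7412470 and 10035702 counts, with a count for 20970 to 21704 of the 33538 genes in the table. Libraries correlated at r = 0.981 to 0.986 within a diet and 0.978 to 0.984 between diets, across genes, which are not independent replicates. Control replicate 2 correlated better with DHA oil replicate 1 (r = 0.984) than with control replicates 1 and 3 (r = 0.981 for each). The gene table lists Ensembl identifiers without names, and the reference tables used here, which are of mouse, matched 0 of them. Genes are therefore given by identifier. Lipid, hypoxia, stress, tumour lineage and host tissue lists, written as gene symbols, could not be applied, and the labelled cell type was not checked against its markers. In a bulk tumour, fewer cells of a type and less RNA per cell cannot be told apart.

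No gene passed the test between the diets. Of 16013 genes tested with edgeR, 0 (0%) had a Benjamini-Hochberg adjusted p under 0.05, and the smallest adjusted p was 0.186. Before adjustment, 438 genes had a p under 0.05 (2.74% of those tested), 163 higher with DHA oil (1.02%) and 275 lower (1.72%). DESeq2 called 11 genes and limma-voom with sample quality weights called 3, all lower with DHA oil. The same edgeR test with no filter on low counts called 57. Across all genes tested the median log2 fold change was 0.00, with quartiles of -0.11 and 0.12, and 50.8% of genes were higher with DHA oil.

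The data limit how large most changes could be. The 95% interval of the fold change lay wholly within 2-fold in either direction for 13287 genes, 83.0% of those tested. It lay within 1.5-fold for 9037 genes (56.4%). These intervals are not adjusted for the number of genes. Precision followed expression. The interval lay within 2-fold for 99.5% of the 1527 genes with a mean log2 CPM over 7, for 95.6% of the 4669 genes between 3 and 5, and for 9.57% of the 1546 genes under 1. In this last class the interval reached beyond 2-fold for most genes, and its median half-width was 1.00 on the log2 scale. Without control replicate 1 the share within 2-fold was 75.7%.

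**Figure D1:**
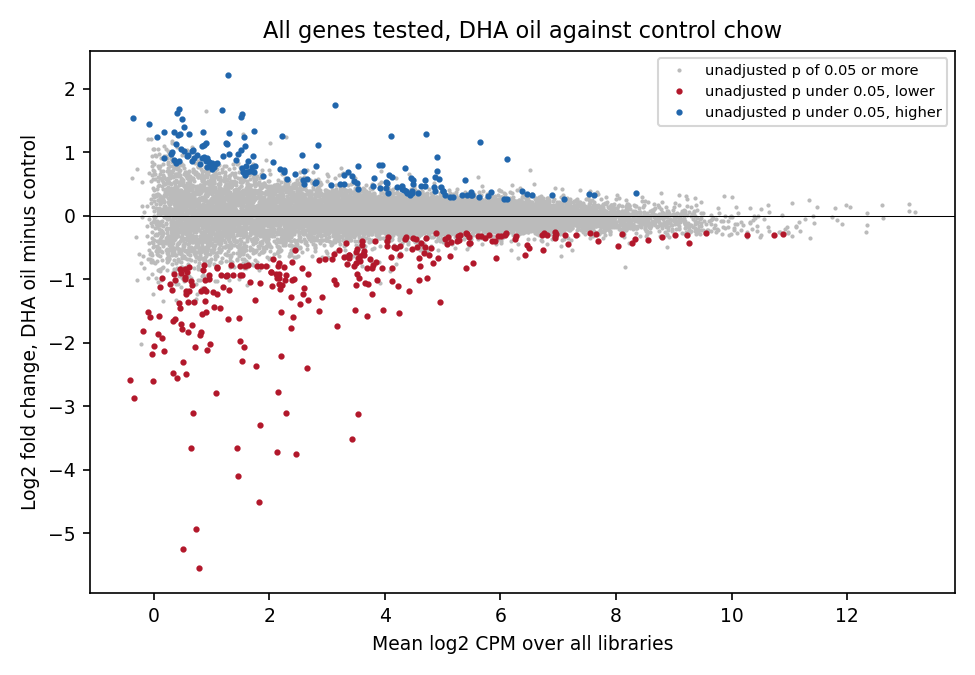
Each point is 1 of the 16013 genes tested, placed by its mean log2 CPM over all libraries (horizontal) and its log2 fold change, DHA oil minus control (vertical). Coloured points are the 275 lower and 163 higher genes at an unadjusted p under 0.05, none of which passed adjustment, and the deepest ones lie below 0.

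The extremes were uneven. A fitted change of more than 2-fold was seen for 142 genes lower with DHA oil and for 55 higher. The interval excluded any change smaller than 2-fold in 22 genes, all lower with DHA oil, and in 0 higher. These 22 had log2 fold changes from -5.55 to -1.73 (median -3.21). The diets did not overlap in 19 of them, which their choice by interval largely fixes. Of all genes tested, 5.93% were lower without overlap and 4.66% higher. Control replicate 1 stood more than 3-fold above the mean of the other controls in 18 of the 22. Without that library their median log2 fold change was -1.90, and the interval still excluded 2-fold in 6.

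ENSG00000101470 had the smallest p of all genes. Its level was 60.3, 5.49 and 13.1 CPM in control replicates 1, 2 and 3, and 1.89, 1.76 and 0.948 CPM in DHA oil replicates 1, 2 and 3. The diets did not overlap, and the lowest control stood 2.90 times above the highest DHA oil library, while the controls themselves spread more than the distance between those neighbours. The means were 26.3 ± 29.7 CPM in control and 1.53 ± 0.511 CPM with DHA oil (SD, n = 3 each). The log2 fold change was -4.11 ± 0.69 (SE), which is 17.2-fold lower, and it did not pass (edgeR adjusted p = 0.186). It passed in DESeq2 (adjusted p = 0.00272), and in edgeR without control replicate 2 (adjusted p = 0.00747) or with no filter (adjusted p = 6.59e-09). It did not pass in limma-voom (adjusted p = 0.329). Without control replicate 1 the difference was 6.05-fold, a log2 fold change of -2.60 with an interval of -3.47 to -1.72 (edgeR adjusted p = 0.350). The counts behind it were 568, 42 and 95 reads in the controls and 16, 18 and 9 with DHA oil.

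ENSG00000109846 showed a smaller difference on an even background. It stood at 25.5, 22.6 and 19.8 CPM in control replicates 1 to 3 and at 11.5, 6.35 and 6.64 CPM in DHA oil replicates 1 to 3. All DHA oil libraries were below all controls, and replicate 1 was the highest of the DHA oil libraries. The means were 22.6 ± 2.84 and 8.15 ± 2.87 CPM (SD, n = 3 each), 2.79-fold lower with DHA oil, a log2 fold change of -1.48 ± 0.25 (SE; edgeR adjusted p = 0.186). Leaving out control replicate 1 changed it little, to -1.39 with an interval of -2.00 to -0.78. It passed in DESeq2 (adjusted p = 0.000339), in limma-voom (adjusted p = 0.0353) and in edgeR without DHA oil replicate 1 (adjusted p = 0.0498), where the log2 fold change was -1.80. Over all alternatives the adjusted p ran from 7.48e-05 to 1.00.

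In the other direction, ENSG00000119715 had the smallest p among genes higher with DHA oil and a mean log2 CPM of at least 1. It measured 3.61, 3.92 and 2.63 CPM in control replicates 1 to 3 and 5.08, 7.82 and 11.5 CPM in DHA oil replicates 1 to 3. The diets did not overlap, although DHA oil replicate 1 lay only 1.30 times above the highest control. The means were 3.38 ± 0.675 CPM in control and 8.13 ± 3.21 CPM with DHA oil (SD, n = 3 each), 2.39-fold higher. The log2 fold change of 1.26 ± 0.31 (SE) did not pass (edgeR adjusted p = 0.587), and it was 1.31 without control replicate 1. The fish oil libraries averaged 3.58 ± 0.776 CPM for this gene (SD, n = 4), near the control mean. For the other genes given by identifier the fish oil mean was nearer to that of DHA oil, at 0.794 ± 0.134 CPM for ENSG00000101470, 8.20 ± 2.18 CPM for ENSG00000109846 and 4.08 ± 1.74 CPM for ENSG00000164035 (SD, n = 4 each). These genes were chosen by their difference between control and DHA oil, in a fit that included the fish oil libraries. That choice can by itself set the control mean apart from the fish oil mean. Differences between the oils were not tested here.

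ENSG00000164035 was a low transcript, with 12, 7 and 10 reads in control replicates 1 to 3 and 23, 38 and 42 reads in DHA oil replicates 1 to 3. In CPM these were 1.27, 0.915 and 1.38 in control and 2.72, 3.71 and 4.42 with DHA oil. Every DHA oil library was above every control, by 1.97 times between the nearest ones. The log2 fold change of 1.60 ± 0.42 (SE), 3.02-fold higher, did not pass (edgeR adjusted p = 0.802), and it was 1.65 without control replicate 1.

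**Figure D2:**
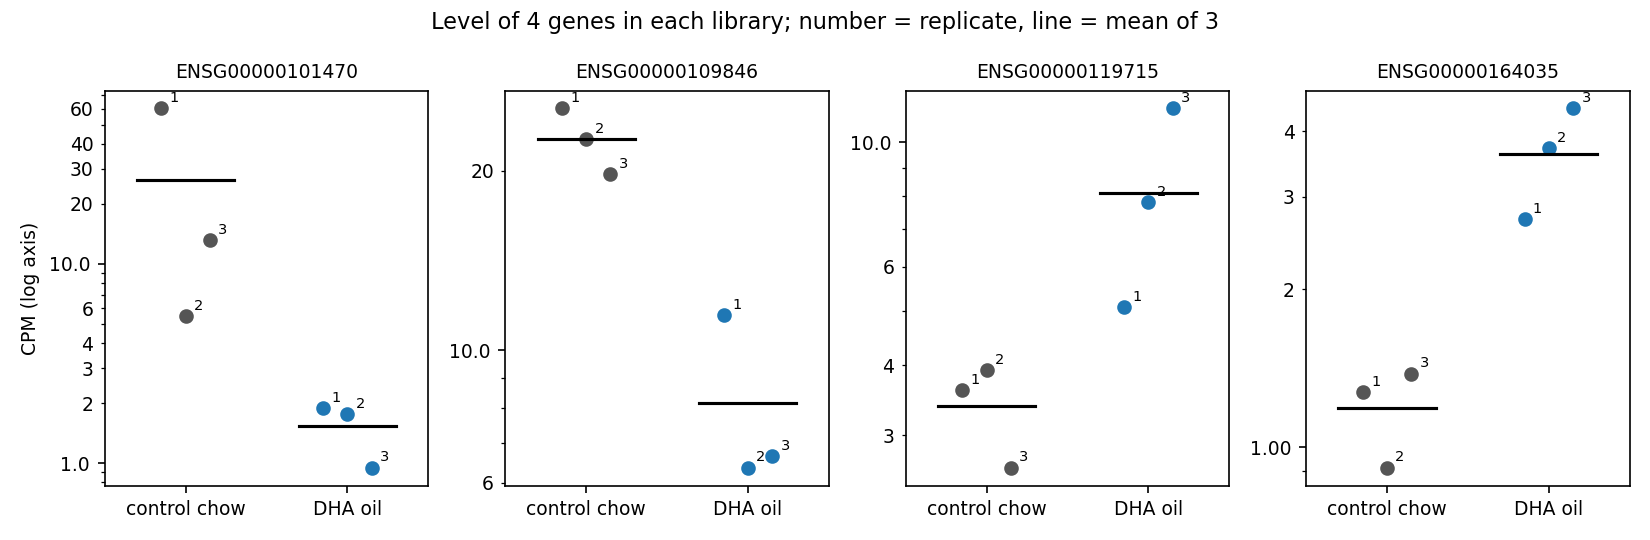
Level of 4 genes in CPM (log axis, its range differing between panels) in the 3 control and 3 DHA oil libraries, with the replicate number beside each point and a line at the mean. The diets do not overlap in any panel, and control replicate 1 at 60.3 CPM stands far above the other controls for ENSG00000101470 only.

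The 12 genes with the smallest p in each direction, at a mean log2 CPM of at least 1, showed how each library took part. The 12 lower genes had log2 fold changes from -4.51 to -1.24 (edgeR adjusted p 0.186 to 0.476), and the diets did not overlap in 12 of 12, which their choice by p largely fixes (5.93% of all genes tested were lower without overlap). Control replicate 1 was the highest control in 11. The ratio of control replicate 1 to the other controls parted them into groups of 6 and 6, a split made after the values were seen and so not tested.

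In 6 of the 12, ENSG00000101470 among them, control replicate 1 was 5.07 to 7.84 times the mean of the other controls. Their log2 fold changes were -4.51 to -3.12 (median -3.70). Taken from the mean of the controls, the median log2 level was 1.78 in control replicate 1, -1.21 and -0.52 in control replicates 2 and 3, and -2.39, -3.04 and -3.87 in DHA oil replicates 1 to 3. By these medians the other controls lay between control replicate 1 and the DHA oil libraries, an order that the choice of these genes largely fixes. Without control replicate 1 the median log2 fold change of these 6 was -2.26.

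In the other 6, ENSG00000109846 among them, control replicate 1 was 0.973 to 1.74 times the mean of the other controls. Their log2 fold changes were smaller and closer together, -1.73 to -1.24 (median -1.43), with a median of -1.34 without control replicate 1. On the same scale the controls stood at 0.19, -0.17 and 0.01 and the DHA oil libraries at -1.28, -1.59 and -1.22. These are medians, and their closeness within a diet is partly fixed by choosing the genes by p and by that ratio. Single genes ranged from -0.62 to 0.55 in the controls and from -1.99 to -0.96 in the DHA oil libraries.

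The 12 higher genes differed less, with log2 fold changes from 0.47 to 2.21 (edgeR adjusted p 0.587 to 1.00). Control replicate 1 was in no case more than 1.74 times the other controls, and the median log2 fold change was 1.04 with it and 0.99 without it. Here DHA oil replicate 1 stood apart in some of the genes, while it was the highest library in others. The median log2 level above the control mean was 0.34 in DHA oil replicate 1 against 1.19 in both other DHA oil libraries. In 6 of the 12 genes DHA oil replicate 1 was no higher than the highest control, so that the diets overlapped. They did not overlap in the other 6, which the choice by p favours. Of all genes tested, 4.66% were higher without overlap.

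**Figure D3:**
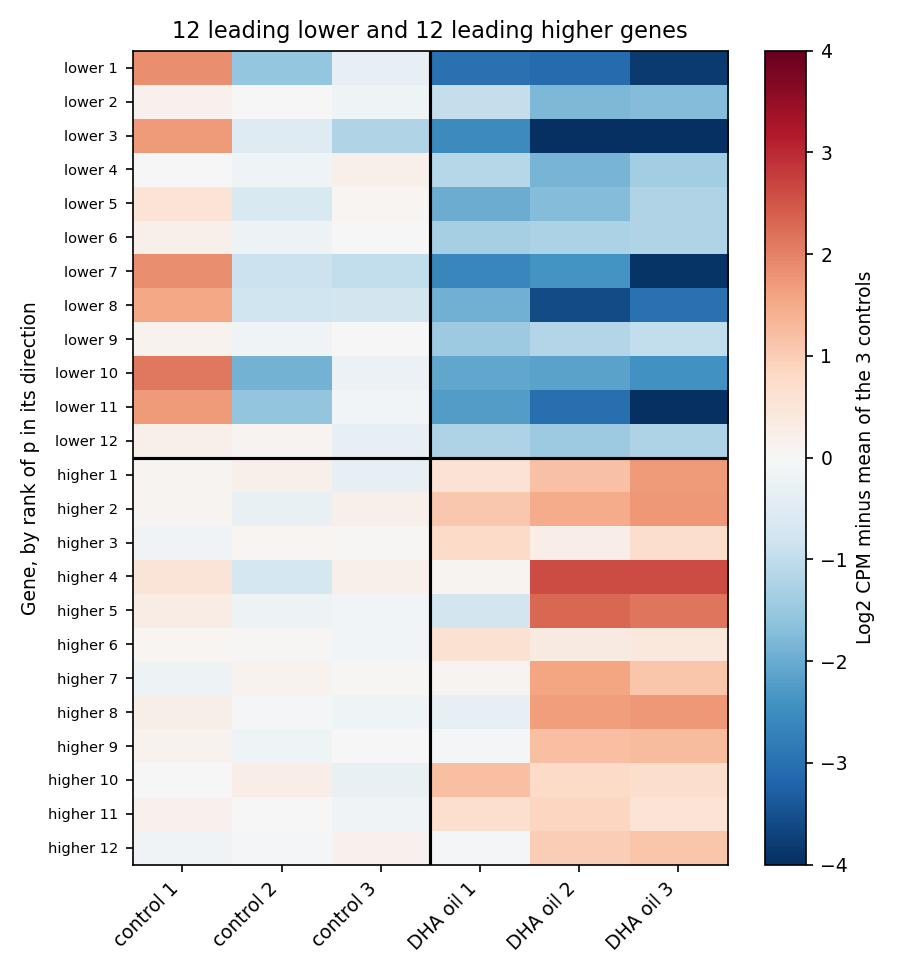
Log2 CPM of the 12 leading lower and 12 leading higher genes (rows, by rank of p in each direction) in each of the 6 libraries (columns), as the difference from the mean of the 3 controls, with colours saturating at 4 in either direction. Among lower genes a subset of 6 is high in control replicate 1, and among higher genes DHA oil replicate 1 is often near the controls.

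The broader set of 275 lower genes at an unadjusted p under 0.05 had a median log2 fold change of -0.89, and the 163 higher genes one of 0.73. Among the lower genes control replicate 1 was the highest of the 6 libraries in 113, control replicate 3 in 110 and control replicate 2 in 52. Among the higher genes DHA oil replicate 1 was the highest in 56, DHA oil replicate 2 in 62 and DHA oil replicate 3 in 45. Choosing genes by p and direction largely fixes which diet holds the highest library. Over all genes tested, control replicates 1 to 3 were the highest in 15.3%, 19.8% and 17.5%. DHA oil replicates 1 to 3 were so in 18.4%, 13.8% and 15.2%. Control replicate 1 exceeded 3 times the mean of the other controls in 32 of the 275 lower genes, in 3 of the 163 higher and in 79 of all 16013. Over all genes the corresponding number was 22 for control replicate 2 and 34 for control replicate 3, and 35, 39 and 18 for DHA oil replicates 1 to 3.

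Removing control replicate 1 left edgeR with 0 calls and 535 genes at an unadjusted p under 0.05, of which 234 were higher (1.44% of 16212 tested) and 301 lower (1.86%). Of the 438 genes found with all libraries, 256 were also found without it, in the same direction. These were 167 of the 275 lower genes and 89 of the 163 higher. Both fits share the DHA oil libraries and the remaining controls, so the genes chosen by p in the first largely keep their direction in the second. The median log2 fold change went from -0.89 to -0.83 in the lower genes and from 0.73 to 0.75 in the higher. Over all genes tested, 142 were lower and 55 higher by more than 2-fold with all libraries. Without control replicate 1 these were 176 lower and 160 higher, so both counts rose, the higher one more. The interval still excluded any change smaller than 2-fold only in lower genes, 11 against 0 higher.

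**Figure D4:**
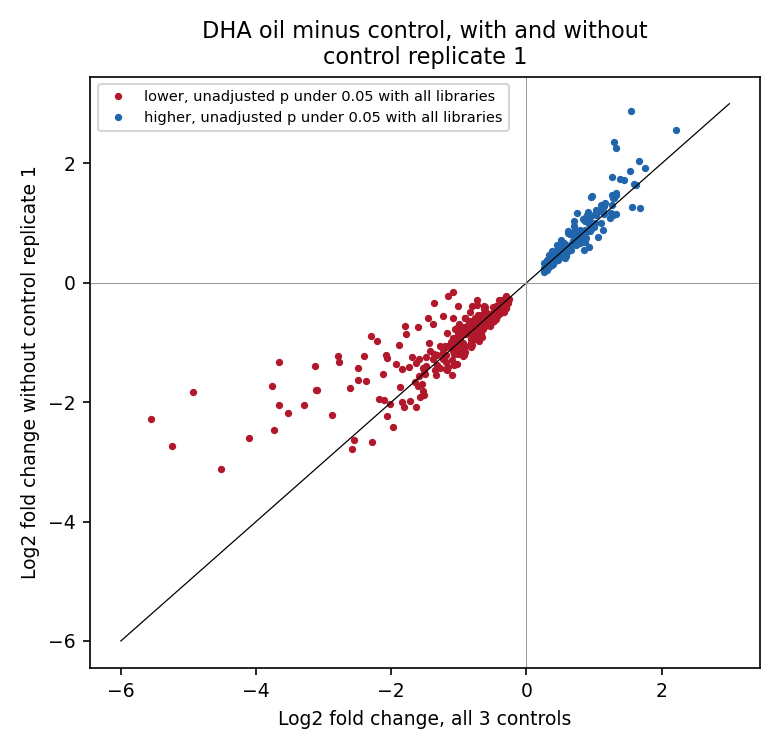
Log2 fold change, DHA oil minus control, with all 3 controls (horizontal) and without control replicate 1 (vertical) for the genes at an unadjusted p under 0.05 with all libraries. Both values use the same DHA oil libraries and share controls, points on the diagonal line did not move, and the deepest lower genes lie above it, nearer to 0.

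The 57 genes called with no filter on low counts are largely the genes already described, from the same libraries, and include all 12 leading lower genes. They were 53 lower (0.204% of 26038 tested) and 4 higher (0.0154%). Of the 53 lower genes, 47 had also been tested after the filter, and all 47 had an unadjusted p under 0.05 there. Control replicate 1 was the highest library in 42 of the 53 and over 3 times the mean of the other controls in 29. The diets did not overlap in 40 of the 53, which their choice by p favours. After the filter, 5.93% of all genes tested were lower without overlap and 4.66% higher. The 4 higher genes, with log2 fold changes of 0.92 to 2.21, overlapped the controls in 4 of 4. DHA oil replicate 1 held only 0.121 to 0.410 of the mean of DHA oil replicates 2 and 3 for them. Relative to the control mean their median log2 level was -0.18 in DHA oil replicate 1 and 2.00 and 1.94 in DHA oil replicates 2 and 3.

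Genes of the cell cycle could be read by identifier, because a published human classifier of cell cycle phase lists its marker genes that way. G1 is the phase of growth before DNA is copied, S the phase of copying, and G2M the span that ends in mitosis. Among the 100 leading markers of each phase, 96 (G1), 97 (S) and 97 (G2M) were tested. The 3 sets share no gene. None of their genes was called by edgeR. At an unadjusted p under 0.05 there were 0 of 96, 1 of 97 and 1 of 97, or 0%, 1.03% and 1.03%, against 2.74% of all genes tested. That share depended on expression. It was 1.14% of the 5349 genes with a mean log2 CPM of 5 to 7, the range that holds the set means.

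The level of each phase set hardly varied between libraries. Mean log2 CPM of the G2M genes was 5.45, 5.42 and 5.34 in control replicates 1 to 3 and 5.41, 5.45 and 5.34 in DHA oil replicates 1 to 3. For S genes it was 5.93, 5.80 and 5.84 in control and 5.82, 5.87 and 5.80 with DHA oil. For G1 genes it was 5.12, 5.16 and 5.07 in control and 5.09, 5.12 and 5.08 with DHA oil. The diets overlapped in all 3 sets. The median log2 fold change was -0.03 for G1, 0.00 for S and -0.02 for G2M genes, beside 0.00 for all genes tested. It was -0.03, 0.00 and 0.00 without control replicate 1. The interval lay within 2-fold for 96 of 96 G1, 92 of 97 S and 96 of 97 G2M genes. Log2 fold changes of single genes ran from -0.35 to 0.40 (G1), -2.77 to 0.33 (S) and -0.44 to 0.26 (G2M).

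**Figure D5:**
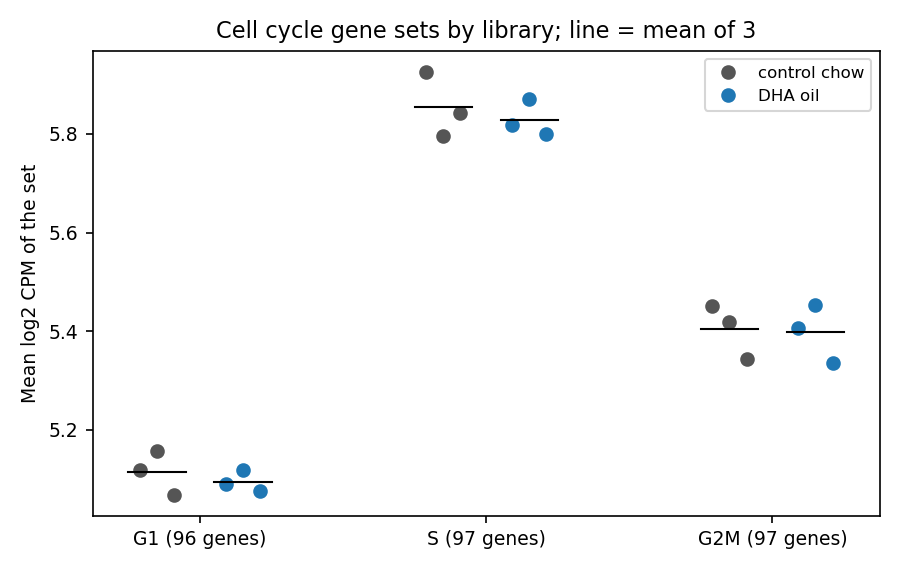
Mean log2 CPM of the marker genes of each cell cycle phase (vertical) in the 3 control and 3 DHA oil libraries, with a line at the mean of each diet. In each of the 3 sets the points of the diets overlap, for example 5.34 to 5.45 in both diets for G2M.

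Genes detected in 1 diet only had few counts. Among the low transcripts, 1508 genes had 0 counts in all controls and at least 1 with DHA oil, but at most 12 counts over the 3 DHA oil libraries. The reverse held for 1278 genes, at most 22 counts over the 3 controls. The control libraries varied slightly more among themselves. The median SD of log2 CPM between libraries was 0.18 in control and 0.16 with DHA oil, and it was larger in control for 57.3% of genes. No test of that difference was run. Control replicates 2 and 3 had the fewest counts of the 6 libraries (7815112 and 7412470), and the effect of depth on this spread was not tested.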

How the data were processed

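The authors deposited raw counts, whole numbers of reads per human Ensembl gene with no normalisation. Reads were processed with STAR, HTSeq 0.9.0 and GRCh38, per the submitters' processing notes. Which annotation and strand setting were used, and what was done with reads of the host, were not given in the sources used here. Overlapping, antisense and near-identical genes are therefore uncertain. Groups come from the sample titles. From the deposited counts, genes were kept by filterByExpr (minimum count 10) and scaled by TMM. The 10 libraries were fitted together in edgeR 4.0.16 (R 4.3.3) with diet as the factor, tested by the quasi-likelihood F test and adjusted by Benjamini-Hochberg at 0.05. The SE is the absolute log2 fold change over the square root of F, and 95% intervals use it. Log2 CPM has a prior count of 2. Alternatives were other scaling, filters, DESeq2 1.42.0, limma 3.58.1 (voom with sample quality weights), fits of fewer libraries and the replicate number as a block. Cell cycle sets come from scran 1.30.0.

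The members, lists and rules were chosen with earlier results of these data known. The 32 symbol lists (730 symbols) could not be matched and were not tested. Genes given by identifier are the 2 with the smallest p in each direction at a mean log2 CPM of at least 1. The 12 leading genes per direction follow the same rule without identifiers. Cell cycle sets and counts at an unadjusted p were added after the data were seen.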

Additional observations from a re-analysis of the deposited data

How the results depend on the processing

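The count of called genes, 0 by edgeR after the filter, stayed 0 under the other scaling factors, the strict filter and the fit of only the 6 libraries compared. It was 57 with no filter, 11 in DESeq2 and 3 in limma-voom with quality weights, and 0 to 5 with 1 library left out, 5 without control replicate 2 and 2 without DHA oil replicate 1. With the replicate number as a block it was 1 (10 libraries) and 7 (6 libraries), all lower. The labels do not say whether the numbers pair the libraries. Deviations from the diet mean correlated at -0.03, -0.07 and 0.18 between same-numbered control and DHA oil libraries. DHA oil replicate 1 correlated best with control replicate 2 (0.17). With so few libraries, each centred on its own diet mean, these correlations cannot decide whether the libraries are paired. The 57, 11, 3, 1, 7, 5 and 2 calls were together 57 different genes, 7 of them called in 3 or more settings. The cause of these differences was not tested.

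Genes at an unadjusted p under 0.05, 438 with all libraries, numbered 844 with no filter, 247 with the strict filter (12554 genes tested), 1002 in that limma-voom fit, 839 in the 6 libraries, 955 there with the block, 1218 in the 5 libraries without control replicate 1, and 283 to 622 with 1 library left out (283 without control replicate 3). ENSG00000101470 passed in 3 of 20 alternatives and ENSG00000109846 in 5 of 21, the others in 0 of 20, and none of the 4 turned its sign. Their log2 fold changes ran from -4.58 to -2.60, -1.80 to -1.33, 0.93 to 1.50 (ENSG00000119715) and 1.43 to 1.76 (ENSG00000164035). Cell cycle medians stayed within -0.05 and 0.03.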
